A study of Mus musculus with 18 samples.

Results

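The genes described here encode 10 subunits of Polycomb repressive complex 2 (PRC2): Ezh1, Ezh2, Eed, Suz12, Rbbp4, Rbbp7, Jarid2, Mtf2, Phf1 and Phf19. They were chosen by gene symbol, and each matched 1 of the 21638 genes in the table of counts. All 10 passed the filter on low counts that left 17094 genes for testing. PRC2 places methyl groups on H3K27, a lysine in the tail of histone H3, and chromatin with the trimethylated form is kept transcriptionally silent. Ezh1 or Ezh2 is the enzyme, Eed and Suz12 are needed for its activity, Rbbp4 and Rbbp7 bind histones, and the accessory subunits Phf1, Mtf2, Phf19 and Jarid2 steer the complex to its sites. In endothelial cells, as in other lineages, the complex is known for holding developmental regulators in a repressed state.

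The libraries hold messenger RNA of endothelial cells from the cortex of adult mice, sorted as CD31+, CD41- and CD45-, at day 7 after middle cerebral artery occlusion (MCAO, a surgical model of stroke) or sham surgery. Of the 18 libraries, 3 came from each of 6 groups: sham ipsilateral and contralateral, MCAO ipsilateral and contralateral (all labelled WT, or wild type), and MCAO ipsilateral from mice labelled Hdac2 ECKO or Ezh2 ECKO. ECKO is an endothelial deletion, made in Hdac2lox/lox or Ezh2lox/lox mice that carry Cdh5CreERT2, a recombinase driven by the promoter of the endothelial cadherin gene Cdh5 and switched on by tamoxifen. Every group, wild-type mice included, was labelled as given tamoxifen at 75 mg per kg, and no sham or contralateral library of either deletion was analysed here. The labels did not say whether the wild-type mice carried floxed or Cre alleles, whether replicates were separate mice, or whether both sides came from 1 mouse. The p-values therefore measure only the spread between these libraries.

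All 8 endothelial markers examined, among them Cdh5 and Pecam1, were detected in all 18 libraries, with a summed level of 11232 to 25281 CPM (counts scaled to library size by the TMM method of edgeR). Markers of neurons summed to at most 6.22 CPM, those of microglia to at most 16.7 CPM, those of pericytes to 10.3 to 161 CPM, those of astrocytes to 28.9 to 83.8 CPM and those of oligodendrocytes to 3.75 to 165 CPM. Red cell markers summed to 70.1 to 671 CPM in libraries labelled Ezh2 ECKO and to 38267 to 65445 CPM in MCAO ipsilateral ones. Total counts ran from 25791401 to 57576255 per library. Counts on 1466 olfactory and vomeronasal receptor genes, which brain endothelium is not known to use, served as a background level and ran from 0.0300 to 0.285 CPM per kilobase. MCAO contralateral replicate 1 (0.279) and Ezh2 ECKO replicate 2 (0.285) had the highest background. MCAO contralateral replicate 1 stood apart, since its log2 levels correlated with those of its group at 0.625 and 0.670, while the other 2 libraries of that group correlated at 0.931.

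Several subunits are close relatives in sequence, and their levels can be set against each other only if the reads tell them apart. Over aligned coding bases, Ezh1 and Ezh2 were 70.3% identical and Rbbp4 and Rbbp7 78.4%, and the longest run of bases shared exactly was 17 and 20. Among the Polycomb-like genes the identity was 61.0% for Phf1 and Mtf2, 62.3% for Mtf2 and Phf19 and 62.8% for Phf1 and Phf19, with shared runs of 17, 14 and 17 bases. The stretches below, of 120 coding bases each, show the difference (GRCm38, GENCODE M21, 5′ to 3′ on the coding strand). The first pair is the end of the coding sequence with its stop codon, from the end of the catalytic SET domain (Ezh1 chr11:101192939-101193277, minus strand, and Ezh2 chr6:47530541-47531799, minus strand, introns left out). The second pair is from the middle of the histone-binding proteins (Rbbp4 chr4:129322081-129322200, minus strand, and Rbbp7 chrX:162772244-162772363, plus strand). Capitals mark the bases that differ between the members of a pair, 26 in the first and 27 in the second.
Ezh1: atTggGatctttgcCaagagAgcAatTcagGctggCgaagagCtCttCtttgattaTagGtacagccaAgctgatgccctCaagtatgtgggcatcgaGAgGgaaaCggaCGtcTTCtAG
Ezh2: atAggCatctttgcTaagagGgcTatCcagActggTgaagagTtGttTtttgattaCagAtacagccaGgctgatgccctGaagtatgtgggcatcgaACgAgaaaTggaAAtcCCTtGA
Rbbp4: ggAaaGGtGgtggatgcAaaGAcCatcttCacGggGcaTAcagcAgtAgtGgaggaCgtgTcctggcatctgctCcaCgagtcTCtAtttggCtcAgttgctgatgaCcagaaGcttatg
Rbbp7: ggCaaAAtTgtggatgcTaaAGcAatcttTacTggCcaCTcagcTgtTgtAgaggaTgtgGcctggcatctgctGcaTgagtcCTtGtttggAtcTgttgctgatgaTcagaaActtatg

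The genes lie on separate chromosomes apart from Ezh1 and Suz12. On GRCm38, Ezh1 spans 101191115 to 101226463 on the minus strand of chromosome 11 and Suz12 spans 79993106 to 80034123 on its plus strand. Ezh2 lies at 47530139 to 47595341 on chromosome 6 (minus), Eed at 89954654 to 89980983 on chromosome 7 (minus), Rbbp4 at 129307100 to 129335370 on chromosome 4 (minus) and Rbbp7 at 162760402 to 162779092 on chromosome X (plus). Jarid2 lies at 44729474 to 44921643 on chromosome 13 (plus), Mtf2 at 108065674 to 108109004 on chromosome 5 (plus), Phf1 at 26933052 to 26937908 on chromosome 17 (plus) and Phf19 at 34893757 to 34914026 on chromosome 2 (minus). In the annotation, 7 of the 10 genes share exon bases with a gene on the opposite strand, most of all Rbbp4 (1578 bases, with Sync and Gm26722) and Phf1 (1526 bases, with Cuta and AC144621.3). Mtf2 shares 395 bases with Tmed5, Eed 261 with E230029C05Rik, Suz12 178 with Gm26563, Ezh2 174 with Gm26625 and Rbbp7 174 with Txlng. Whether counting used strand is not given in the sources used here, so reads from such shared bases cannot be told apart. Ezh1, Jarid2 and Phf19 share none.

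Set in order of level per length (CPM per kilobase of exon, mean ± SD over the 18 libraries), the histone-binding subunit Rbbp7 came first at 69.9 ± 21.5, above 94.97% of the genes tested. The core subunits Eed (22.4 ± 7.18) and Suz12 (15.6 ± 7.84) followed. Next came the Polycomb-like subunit Mtf2 (11.4 ± 3.91), the histone-binding subunit Rbbp4 (7.12 ± 2.07), the enzyme Ezh1 (4.36 ± 1.18), the accessory subunit Jarid2 (4.24 ± 1.91) and Phf1 (3.13 ± 1.15). The enzyme Ezh2, at 1.33 ± 0.848, lay above 47.2% of the genes tested, and Phf19, at 0.162 ± 0.179, above 27.4%. Some neighbours in this order were not set apart by the spread: Suz12 exceeded Mtf2 in 12 of 18 libraries and Ezh1 exceeded Jarid2 in 12 of 18. Rbbp7 exceeded Eed in 17, Rbbp4 exceeded Ezh1 in 16, Phf1 exceeded Ezh2 in 16 and Ezh2 exceeded Phf19 in 17.

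**Figure D1:**
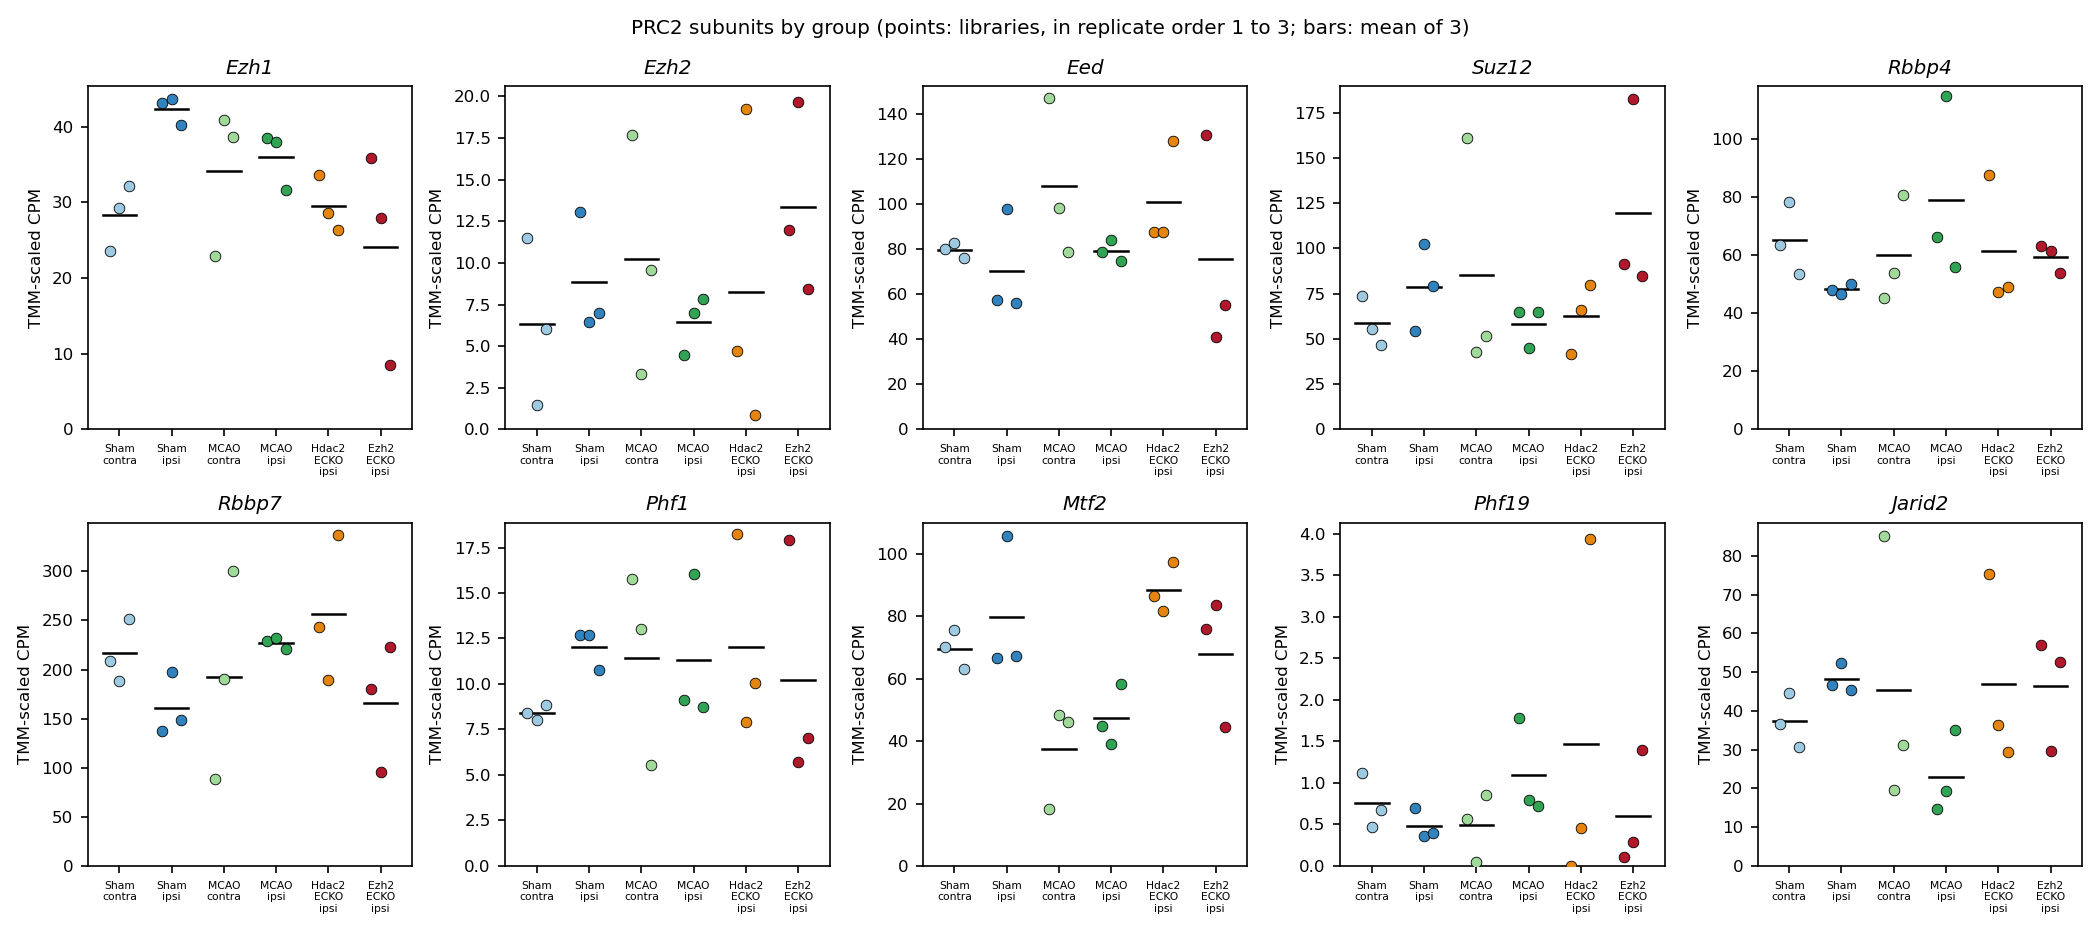
Level of each PRC2 subunit (TMM-scaled CPM, linear axis from 0) in each of the 18 libraries, by group; points are libraries in replicate order and bars are the mean of 3. Mtf2 sits at 63.0 to 106 CPM in the 6 sham libraries and at 18.1 to 58.4 CPM in the 6 wild-type MCAO libraries, while Ezh2 ranges from 0.882 to 19.7 CPM with libraries of 1 group far apart.

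Of the enzymes, Ezh1 was the more abundant per length in 17 of 18 libraries. Ezh1 is known for persisting in cells that have left the cell cycle, and Ezh2 for high levels in dividing cells. Ezh2 took 3.60% to 52.3% of the summed Ezh1 and Ezh2 level per kilobase, with a median of 19.4%. The mean share was 19.3% ± 15.0 in sham contralateral, 18.6% ± 5.88 in sham ipsilateral, 25.4% ± 19.2 in MCAO contralateral, 16.7% ± 5.14 in MCAO ipsilateral and 19.96% ± 20.4 in libraries labelled Hdac2 ECKO (SD, n = 3 each). It was 41.1% ± 12.8 in libraries labelled Ezh2 ECKO, where single libraries gave 27.1%, 44.0% and 52.3%. The last of these, replicate 3, was the single library in which Ezh2 exceeded Ezh1, and its Ezh1 level of 8.55 CPM was the lowest of all 18. All 3 shares under the Ezh2 ECKO label lay above the MCAO ipsilateral ones (11.4%, 17.1% and 21.7%). However, the Hdac2 ECKO, MCAO contralateral and sham contralateral groups each held a library within the Ezh2 ECKO range as well (42.8%, 46.2% and 35.2%).

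Ezh2 was the more variable enzyme. Its level spanned 22.3-fold between the lowest and highest library, against 5.10-fold for Ezh1. Each range rested in part on 1 library: without Hdac2 ECKO replicate 3 that of Ezh2 was 13.3-fold, and without Ezh2 ECKO replicate 3 that of Ezh1 was 1.90-fold. In libraries labelled Hdac2 ECKO it read 4.69, 19.2 and 0.882 CPM, so that replicates of 1 group covered nearly the whole range. The lowest of these, replicate 3, stood at 1.24 times the background level per kilobase, whereas in all 18 libraries Ezh1 stood at 11.0 times background or more. Fewer cells that use a gene and less of its RNA per cell cannot be told apart in bulk libraries.

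**Figure D2:**
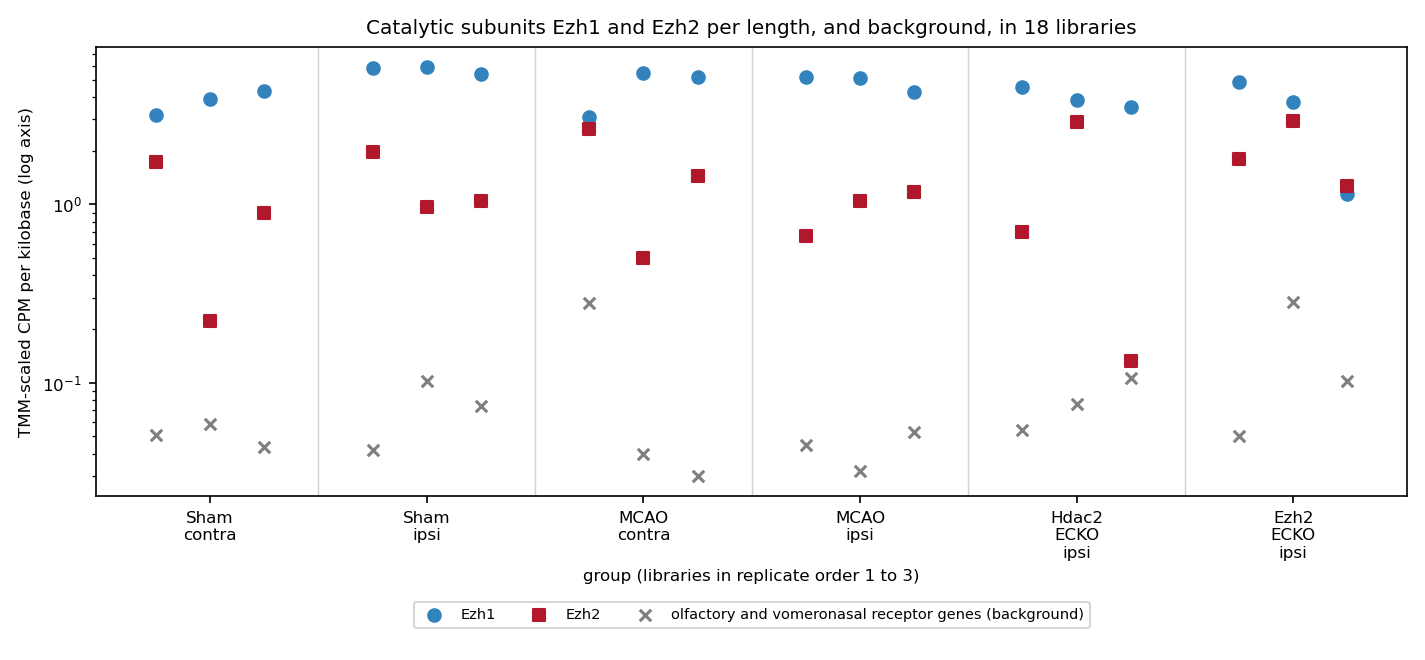
Ezh1 (circles), Ezh2 (squares) and the background of olfactory and vomeronasal receptor genes (crosses) in CPM per kilobase, on a log axis, for the 18 libraries grouped along the horizontal axis in replicate order. Ezh1 lies above Ezh2 in every library but replicate 3 of the group labelled Ezh2 ECKO, and the Ezh2 of Hdac2 ECKO replicate 3 lies next to its background cross.

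Of the histone-binding pair, which PRC2 shares with the NuRD and other deacetylase complexes, Rbbp7 made up 82.4% to 95.4% of the summed level per kilobase, with a median of 91.0%. Among the Polycomb-like subunits, Mtf2 was the most abundant per length, and Phf19 was close to background, above it in 12 of 18 libraries and at 0 counts in Hdac2 ECKO replicate 1, where 3 counts, the limit that a count of 0 allows, would be 0.0991 CPM. This limit covers counting error only and takes each count as independent. Of counts from 1 to 20, 89.4% were even in that library, and 77.3% to 89.4% over the 18 libraries. If fragments were counted in pairs, which was not tested, the limit would be higher.

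The first comparison asks whether occlusion moved PRC2 transcripts on the injured side. None of the 10 subunits passed the test of MCAO ipsilateral against sham ipsilateral in edgeR (adjusted p 0.694 to 0.973), where 0.00% of all genes were called, and DESeq2 also called 0 of 10. At an unadjusted p under 0.05, edgeR had 1 subunit, Jarid2, against 7.08% of all genes. The libraries of both groups did not overlap for 6 of the 10, compared with 27.7% of genes tested: Rbbp4, Rbbp7 and Phf19 were on the higher side after MCAO (13.3% of genes), and Ezh1, Jarid2 and Mtf2 on the lower (14.4%). The median log2 fold change of the 10 was -0.16 and that of all tested genes -0.09. Summed endothelial markers stood at 17612 to 25281 CPM in MCAO ipsilateral libraries and at 13791 to 14708 CPM in sham ipsilateral ones. Microglia markers summed to 7.77 to 16.7 CPM against 3.81 to 7.05 CPM. Pericyte markers went the other way, at 34.5 to 84.4 CPM against 90.5 to 134 CPM. None of these sums overlapped, and their part in the subunit values of this comparison was not tested.

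Jarid2, an accessory subunit that helps recruit PRC2 and stimulates the enzyme, read 14.7, 19.2 and 35.1 CPM in MCAO ipsilateral libraries and 46.6, 52.5 and 45.5 CPM in sham ipsilateral ones. Every MCAO value was below every sham value. Its log2 fold change was -1.06 ± 0.49 (SE; edgeR p 0.0429, adjusted p 0.694), with a 95% interval from -2.09 to -0.04. With voom and sample weights, which trust deviating libraries less, the value was -1.23 at an adjusted p of 0.0240, the one call among the 10 in this comparison under any tool. That setting called 1273 of the 17094 genes tested here, against which 1 of 10 is to be read. Over the other alternatives, single libraries left out included, the adjusted p of Jarid2 ran from 0.0867 upward and its log2 value stayed below 0.

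Mtf2, a Polycomb-like subunit that binds unmethylated CpG-rich DNA, read 44.9, 39.2 and 58.4 CPM in MCAO ipsilateral libraries and 66.6, 106 and 67.1 CPM in sham ipsilateral ones, again with no overlap. The log2 fold change was -0.75 ± 0.37 (edgeR adjusted p 0.707). On the contralateral side, MCAO libraries read 18.1, 48.3 and 46.1 CPM and sham libraries 70.0, 75.6 and 63.0 CPM. There the log2 fold change was -0.89 ± 0.37 (edgeR p 0.0253, adjusted p 0.920). In this contralateral comparison edgeR and DESeq2 called 0 of the 10 subunits, edgeR called 0.00% of all genes, and Mtf2 was the 1 subunit at an unadjusted p under 0.05 (4.41% of genes). Between these groups 9.65% of genes did not overlap, 6.00% on the lower side. Mtf2 was the only one of the 10 subunits that did not, and without MCAO contralateral replicate 1, which gave the lowest value, the log2 fold change was -0.54.

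Over both sides, the 6 MCAO libraries all read lower for Mtf2 than the 6 sham libraries, which held for 1.00% of all genes in that direction and 1.42% in either. The log2 fold change was -0.82 ± 0.26 with a 95% interval from -1.36 to -0.28 (edgeR p 0.00498, adjusted p 0.239). Libraries of both sides were taken as independent here. If both sides came from 1 mouse, the separation, interval and p would rest on fewer mice than libraries. This did not pass the threshold in edgeR, which called 0 of the 10 subunits and 0.152% of all genes here (Mtf2 alone of the 10, and 9.09% of genes, had an unadjusted p under 0.05), nor in DESeq2 (adjusted p 0.0742). It passed with voom and sample weights (log2 -0.61, adjusted p 0.0291), as did Jarid2 (log2 -0.89, adjusted p 0.0193), whose edgeR value was -0.39 ± 0.35 (edgeR adjusted p 0.836). The voom setting called 2199 of the 17094 genes tested over both sides, against which 2 of 10 are to be read. Without MCAO contralateral replicate 1, where Jarid2 was at 85.1 CPM, the edgeR value of Jarid2 was -0.79 (adjusted p 0.143), and that of Mtf2 was -0.64 (adjusted p 0.123). With each library left out in turn, Jarid2 ran from -0.79 to -0.23 and Mtf2 from -0.93 to -0.64. The 6 pericyte markers moved alongside, with a summed level of 81.8 to 161 CPM in sham and 10.3 to 84.4 CPM in wild-type MCAO libraries, and their part in the Mtf2 and Jarid2 values was not tested. Libraries labelled Hdac2 ECKO had pericyte sums of 17.6 to 58.8 CPM with Mtf2 at 81.6 to 97.4 CPM, and those labelled Ezh2 ECKO had pericyte sums of 23.0 to 156 CPM with Mtf2 at 44.4 to 83.7 CPM.

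The histone-binding subunits read higher on the ipsilateral side after occlusion without passing the test. Rbbp4 stood at 66.4, 115 and 56.0 CPM in MCAO ipsilateral libraries and at 48.2, 46.7 and 50.1 CPM in sham ipsilateral ones (log2 0.71 ± 0.35, edgeR adjusted p 0.707). Rbbp7 stood at 229, 232 and 221 CPM against 137, 197 and 149 CPM (log2 0.50 ± 0.38, edgeR adjusted p 0.791). Sham contralateral libraries, however, gave 63.5, 78.4 and 53.7 CPM for Rbbp4 and 209, 188 and 252 CPM for Rbbp7, which overlap the MCAO ipsilateral range for Rbbp4 and contain it for Rbbp7. Between the contralateral groups both genes overlapped and had values below 0 (log2 -0.12 ± 0.35 for Rbbp4 and -0.17 ± 0.38 for Rbbp7).

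The enzymes and the core had smaller point values, though those of Ezh2 and Suz12 were close in size to that of Rbbp7. Ezh1 read 38.5, 38.0 and 31.6 CPM in MCAO ipsilateral libraries and 43.1, 43.6 and 40.2 CPM in sham ipsilateral ones, lower in every library by a small margin (log2 -0.23 ± 0.42). Ezh2 read 4.45, 7.02 and 7.85 CPM against 13.1, 6.48 and 6.98 CPM, with overlap (log2 -0.46 ± 0.86, 95% interval -2.24 to 1.32). Eed gave 0.17 ± 0.38, Suz12 -0.43 ± 0.45, Phf1 -0.09 ± 0.57 and the near-background Phf19 1.17 ± 1.43 on the log2 scale. The intervals of Ezh2, Phf1 and Phf19 include changes of more than 1 log2 unit either way, so a change of that size was not excluded for them at this spread.

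Side was compared within occluded and within sham mice. No subunit passed either test in edgeR or DESeq2, where edgeR called 0.00% of all genes in each. At an unadjusted p under 0.05, edgeR had 0 of the 10 in both, against 3.08% of genes for MCAO and 1.85% for sham. None of the 10 was free of overlap between MCAO sides (5.37% of genes), and 4 were between sham sides (15.4% of genes): Ezh1, Jarid2 and Phf1 higher (8.44% of genes) and Rbbp4 lower (6.98%) on the ipsilateral side. For the dependence of the side difference on occlusion, edgeR and DESeq2 called 0 of 10, edgeR called 0.00% of all genes, and 0 of 10 had an unadjusted p under 0.05 (3.38% of genes). The dependence of the side difference on occlusion was largest in size for Phf19 (log2 1.79 ± 2.02) and had the smallest p for Jarid2 (log2 -1.34 ± 0.69, edgeR p 0.0665, adjusted p 0.941). Without MCAO contralateral replicate 1 the Jarid2 value was -0.52.

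**Figure D3:**
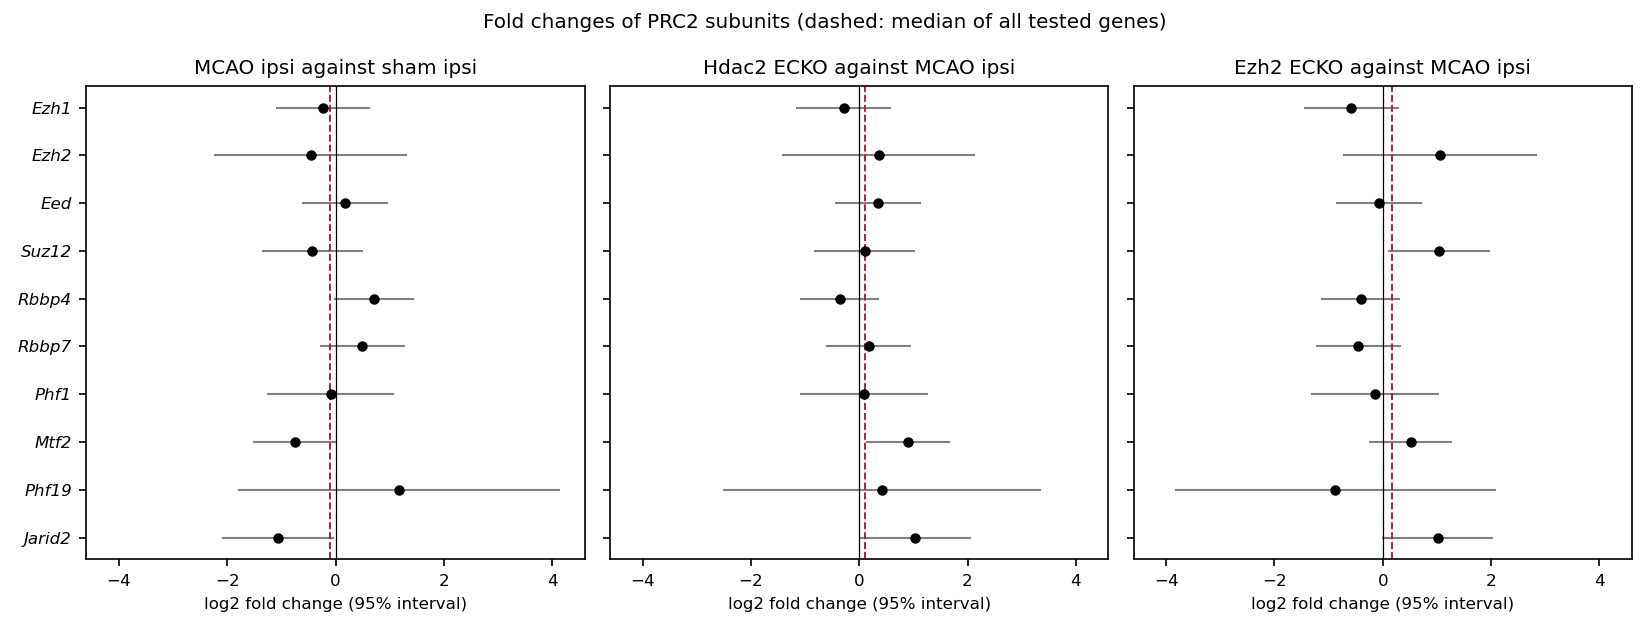
Log2 fold change of each subunit with its 95% interval from edgeR in 3 comparisons: MCAO ipsilateral against sham ipsilateral, and each deletion label against MCAO ipsilateral; dashed lines mark the median of all 17094 tested genes. Intervals are widest for Phf19 and Ezh2, and the points for Jarid2 and Mtf2 lie below 0 after occlusion and above 0 under both deletion labels. All 3 comparisons share the MCAO ipsilateral libraries, so low values in those libraries alone would give such opposite signs.

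The libraries labelled Ezh2 ECKO were set against MCAO ipsilateral ones to ask how PRC2 transcripts stood after endothelial deletion of an enzyme subunit. Ezh2 itself read 12.0, 19.7 and 8.41 CPM in the 3 libraries with that label, each above all 3 MCAO ipsilateral values. The log2 fold change was 1.05 ± 0.86 with a 95% interval from -0.74 to 2.85 (edgeR adjusted p 0.485), and without Ezh2 ECKO replicate 2 it was 0.65. A fall by more than 0.74 log2 units lies outside that interval. One count per gene was deposited, so whether the reads came from the exons between loxP sites was not analysed here, and the direction of the next values is that of libraries by label.

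None of the 10 subunits passed the test under the Ezh2 ECKO label (edgeR adjusted p 0.216 to 0.928), while 1.46% of all genes did, and DESeq2 and voom with sample weights also called 0 of 10. At an unadjusted p under 0.05, edgeR had 1 subunit, Suz12, against 19.2% of genes. Ezh2 and Suz12 did not overlap between the groups, both higher, against 13.6% of genes on that side and 29.0% on either. The median log2 fold change of the 10 was -0.11, beside 0.17 over all tested genes with TMM scaling, and the same medians were 0.02 and 0.36 with RLE scaling. The gap depended on the setting: the medians were -0.02 and -0.02 with the background level as a covariate. With background reads subtracted they were -0.04 and -0.10, the subunits then being the higher.

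Suz12, the core subunit that binds most accessory subunits, read 91.6, 183 and 84.7 CPM in libraries labelled Ezh2 ECKO and 65.1, 45.0 and 64.6 CPM in MCAO ipsilateral ones. Its log2 fold change was 1.04 ± 0.45 with a 95% interval from 0.10 to 1.98 (edgeR p 0.0322, adjusted p 0.216). Among the 10 subunits, Suz12 had the highest Spearman rho with the background level, 0.77 over the 18 libraries and 0.87 with group means removed. With group means kept, 7814 genes at 10 CPM or more had a median of -0.14 and a 5th to 95th percentile of -0.81 to 0.63. These points share each library's depth and scaling. With the background level as a covariate the Suz12 value was 0.20, and without Ezh2 ECKO replicate 2, the library of highest background, it was 0.58, while with background reads subtracted it was 1.28. The part of the background in this difference was not tested further.

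Eed, which reads the trimethylated mark and stimulates the enzyme, read 131, 40.9 and 55.4 CPM under the Ezh2 ECKO label and 79.0, 84.2 and 74.9 CPM in MCAO ipsilateral libraries. Replicate 1 lay above and replicates 2 and 3 below all control values, and the log2 fold change was -0.07 ± 0.38, a value whose sign turned in 5 of 8 other settings. Ezh1, the other enzyme, read 35.9, 27.9 and 8.55 CPM against 38.5, 38.0 and 31.6 CPM (log2 -0.58 ± 0.42, 95% interval -1.46 to 0.30). Rbbp4 gave -0.41 ± 0.35 and Rbbp7 -0.45 ± 0.38.

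Among the accessory subunits, Jarid2 read 57.1, 29.7 and 52.6 CPM under the Ezh2 ECKO label, of which only replicate 2 fell within the MCAO ipsilateral range of 14.7 to 35.1 CPM. Its log2 fold change was 1.01 ± 0.49 (edgeR p 0.0531, adjusted p 0.265). Mtf2 gave 0.52 ± 0.37, Phf1 -0.15 ± 0.57 and Phf19 -0.87 ± 1.42. Red cell markers were lower under this label, as given above, and the summed endothelial markers stood at 11232 to 13311 CPM against 17612 to 25281 CPM in MCAO ipsilateral libraries. The part of either in these values was not tested.

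Libraries labelled Hdac2 ECKO were compared with the same MCAO ipsilateral libraries, so the values of both labels share their controls. Red cell markers summed to 49294 to 297849 CPM under this label against 38267 to 65445 CPM in the controls, and endothelial markers to 13768 to 16963 CPM against 17612 to 25281 CPM, with no overlap for the latter. The part of either in the values below was not tested. Hdac2, a deacetylase of the NuRD complex, read 57.6 to 87.9 CPM under its own deletion label and 68.2 to 96.1 CPM in MCAO ipsilateral, so these libraries too are named by label. None of the 10 PRC2 subunits passed in edgeR (adjusted p 0.448 to 0.965), where 0.0117% of all genes were called, nor in DESeq2 or voom with sample weights. At an unadjusted p under 0.05, edgeR had 2 subunits, Mtf2 and Jarid2, against 9.85% of genes. Mtf2 and Eed did not overlap between the groups, both higher, against 9.54% of genes on that side and 19.9% on either. The median log2 fold change of the 10 was 0.26, beside 0.11 over all tested genes.

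Mtf2 read 86.5, 81.6 and 97.4 CPM in libraries labelled Hdac2 ECKO, above the 39.2 to 58.4 CPM of MCAO ipsilateral and within the 66.6 to 106 CPM of sham ipsilateral libraries. The log2 fold change against MCAO ipsilateral was 0.90 ± 0.37 (edgeR p 0.0243, adjusted p 0.448), and against sham ipsilateral 0.15 ± 0.37. Jarid2 read 75.3, 36.3 and 29.4 CPM, with a log2 fold change of 1.03 ± 0.49 (edgeR p 0.0496, adjusted p 0.505), and 0.48 without Hdac2 ECKO replicate 1. Eed read 87.5, 87.6 and 128 CPM, close above the MCAO ipsilateral values (log2 0.35 ± 0.38).

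The other subunits under the Hdac2 ECKO label overlapped the controls. Ezh2 had a log2 value of 0.36 ± 0.86, which was -1.25 without replicate 2. Ezh1 gave -0.29 ± 0.42, Suz12 0.10 ± 0.45, Rbbp4 -0.36 ± 0.35, Rbbp7 0.17 ± 0.38, Phf1 0.09 ± 0.57 and Phf19 0.42 ± 1.41. Phf19 rested on replicate 3 at 3.94 CPM, while replicate 1 had 0 counts and replicate 2 stood at 0.451 CPM, and without replicate 3 its value was -2.29.

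Set directly against each other, the deletion labels gave 0 of 10 subunits called in edgeR and in DESeq2, and edgeR called 0.123% of all genes. At an unadjusted p under 0.05, 0 of 10 passed in edgeR, against 11.2% of genes. Suz12 was the one subunit without overlap (12.1% of genes), at 41.9, 65.9 and 79.7 CPM in Hdac2 ECKO libraries, all below the 84.7 to 183 CPM of the Ezh2 ECKO ones (5.26% of genes on that side). The log2 difference, Hdac2 ECKO minus Ezh2 ECKO, was -0.94 ± 0.45 (edgeR p 0.0508, adjusted p 0.450), and -0.51 without Ezh2 ECKO replicate 2.

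Each label was also compared with sham ipsilateral. No subunit passed in edgeR or DESeq2, or had an unadjusted edgeR p under 0.05, for Ezh2 ECKO (0.0410% of all genes called, 6.52% at an unadjusted p under 0.05) or for Hdac2 ECKO (0.00% and 7.14%). Under the Ezh2 ECKO label Ezh1 lay below and Rbbp4 above all sham ipsilateral values (13.7% of genes did not overlap, 8.13% lower and 5.55% higher). Ezh1 had a log2 fold change of -0.81 ± 0.42 there (edgeR adjusted p 0.799), and -0.41 without Ezh2 ECKO replicate 3. Under the Hdac2 ECKO label Ezh1 again lay below, at 33.7, 28.6 and 26.3 CPM (log2 -0.52 ± 0.42), against 15.3% of genes without overlap and 8.34% on that side.

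The wider Polycomb system was read from lists of related genes in the Ezh2 ECKO comparison, where 1.46% of all genes were called and the median over all genes was 0.17 log2 units. Of 23 genes of Polycomb repressive complex 1 (PRC1), which binds trimethylated H3K27 and ubiquitinates histone H2A, 1 rose and 0 fell, with a median of 0.15. The gene that rose was Bmi1, a core subunit of that complex, at 141, 170 and 197 CPM under the label and 47.2, 53.9 and 70.1 CPM in MCAO ipsilateral libraries (log2 1.57 ± 0.39, edgeR adjusted p 0.0475). Of 13 Trithorax-group genes, whose products oppose Polycomb silencing, 1 rose and 0 fell, with a median of 0.50. This was Kmt2c, a histone H3 lysine methyltransferase active at enhancers, at 97.9, 165 and 176 CPM against 58.2, 61.9 and 64.2 CPM (log2 1.25 ± 0.30, edgeR adjusted p 0.0434). Both calls sat close to the threshold and were lost when any 1 of the 6 compared libraries was left out, with adjusted p from 0.0564 to 0.230 for Bmi1 and from 0.0527 to 0.225 for Kmt2c, with the background covariate (adjusted p 0.150 and 0.123) and with the replicate block (adjusted p 0.0773 and 0.0736).

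In the remaining lists edgeR called none. At an unadjusted p under 0.05 stood 19.2% of all genes, against which the counts below are to be read. Of 3 further PRC2 accessory genes tested, 2 had such a p, with a median of 0.90: Aebp2 (51.1, 51.7 and 76.3 CPM against 28.9 to 41.1, log2 0.85 ± 0.34, edgeR adjusted p 0.182, DESeq2 0.0175) and Lcorl (log2 1.26 ± 0.57). Aebp2 belongs to the form of PRC2 that also contains Jarid2, and its lowest value under the Ezh2 ECKO label was above every MCAO ipsilateral value. The H3K27 demethylases were both lower in value, Kdm6b at -0.70 ± 0.47 and Kdm6a at -0.13 ± 0.39. Of 6 genes of the H2A deubiquitinase module, which removes the PRC1 mark, Asxl2 had the smallest p (log2 1.28 ± 0.45, edgeR adjusted p 0.131, DESeq2 0.0396). Asxl3 was at 2.62 ± 1.45, on levels of 0.270 to 2.45 CPM, and the list's median was 0.32.

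Of 11 NuRD genes, which share Rbbp4 and Rbbp7 with PRC2, 2 had an unadjusted p under 0.05, a share near the 19.2% of all genes: Hdac2 (118, 140 and 156 CPM against 68.2, 84.4 and 96.1, log2 0.74 ± 0.32, edgeR adjusted p 0.216) and Gatad2b (log2 1.01 ± 0.45), while the list's median was -0.32. Of 4 genes of DNA methylation, Dnmt3a gave 1.03 ± 0.49 and Uhrf1 -2.22 ± 1.17, with a median of 0.75. Of 20 proliferation genes the median was 0.02, and Mcm5 (log2 -2.07 ± 0.97) and Cdk1 (log2 -2.03 ± 1.18) had the smallest p, both at under 1 CPM under the Ezh2 ECKO label. A few dividing cells and low RNA in all cells cannot be told apart at such levels.

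Of 34 developmental and cell-cycle genes known as Polycomb targets in other cells, 18 passed the filter, and the other 16 stayed under it in these libraries. Of the 18, 0 were called, 13 had values above 0 and 5 below (55.4% of all genes were above 0), with a median of 0.85 beside 0.17 for all genes. That median rested on scarce genes: 15 of the 18 had a mean level of 0.133 to 1.41 CPM, with a median log2 fold change of 1.21. The 3 with a mean of at least 10 CPM, singled out after their values were seen, had log2 fold changes of 0.77 (Tbx3), 0.20 (Msx1) and -0.43 (Cdkn2b). Tbx3, a T-box factor, read 83.1, 88.4 and 105 CPM under the Ezh2 ECKO label and 49.6, 55.4 and 57.8 CPM in MCAO ipsilateral (log2 0.77 ± 0.31, edgeR adjusted p 0.179, DESeq2 0.0104). Lhx9, a LIM homeobox factor, had a log2 value of 3.09 ± 1.39, on levels of 0.243 to 2.13 CPM against 0.0883 to 0.144 CPM. The library of highest background, Ezh2 ECKO replicate 2, belongs to this group, and its part in the list's median was not tested. Mean background was 0.146 CPM per kilobase under this label and 0.0430 in MCAO ipsilateral. A scarce gene can pass the filter through the libraries where it reads high, and the all-gene figures cover genes of every level. Without the count filter the median over all genes was 0.50. The list was not compared with equally scarce genes. Under the Hdac2 ECKO label, against the same controls, the list's median was 0.91 beside 0.11 for all genes, with 0 called, and that of the 3 more abundant genes was 0.28.

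**Figure D4:**
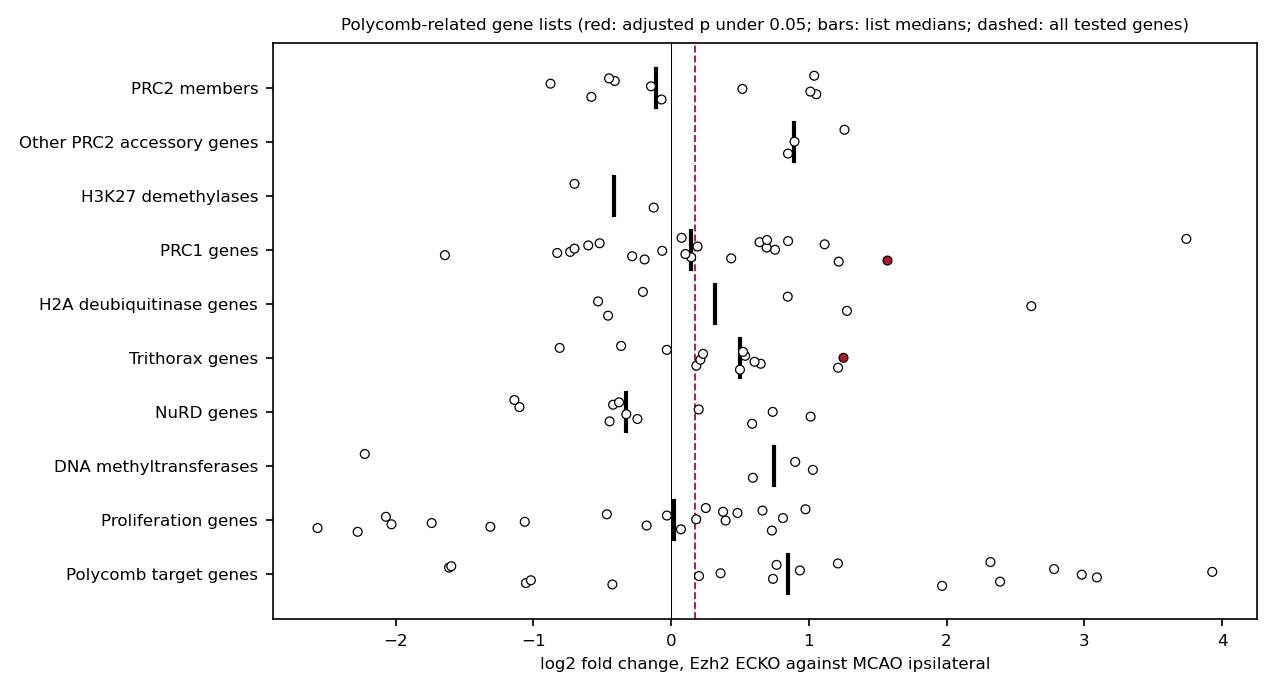
Log2 fold change of each tested gene of 10 Polycomb-related lists, libraries labelled Ezh2 ECKO against MCAO ipsilateral; filled red points passed an adjusted p of 0.05, black bars are list medians and the dashed line is the median of all tested genes. Only Bmi1 (PRC1) and Kmt2c (Trithorax) are filled, and the median of the Polycomb targets, 0.85, lies above the dashed line at 0.17. That line covers genes of every level, while most of the targets tested were scarce.

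Across the 18 libraries the subunits did not share 1 pattern. Among 45 pairs, Spearman's rho of log2 CPM ran from -0.55 (Ezh2 with Rbbp7) to 0.57 (Eed with Phf1), with a median of -0.05 and 19 pairs above 0. Eed with Suz12, the core partners, gave 0.04, and Ezh1 with Ezh2 gave -0.24. All points share their library's depth, scaling and background. Of 7814 genes at 10 CPM or more, those most like Ezh2 were Ppox (0.80), Aggf1 (0.76), Phkb (0.74), Lmtk2 (0.71) and Xpot (0.69). Those most like Ezh1, of 7813 genes, were Chmp7 (0.85), St3gal1 (0.76), Clk3 (0.76), Glt8d1 (0.75) and Pip5k1c (0.73), each with a rho of -0.60 to -0.75 against the background level, where Ezh1 had -0.55. With group means removed, Ppox gave 0.82 and Xpot 0.23 with Ezh2, and St3gal1 0.78 and Chmp7 0.45 with Ezh1.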

How the data were processed

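Messenger RNA of sorted cortical endothelial cells was read as paired-end libraries made with a SMART-Seq kit, per the labels' protocols. The deposited table holds 1 count per gene and library. The submitters' processing notes name FastQC, cutadapt, STAR, featureCounts, DESeq2 and mm10, with no versions or settings. The table is titled as normalized, but its values are whole counts with unequal totals (25791401 to 57576255), so they were used as unscaled counts. Even values made up 77.3% to 89.4% of counts from 1 to 20 per library. A count may therefore not stand for 1 fragment, and the filter on low counts may ask for fewer fragments than counts. No value column was left unused (0).

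Genes with at least 10 counts in at least 3 libraries were kept (17094 of 21638). One edgeR 4.0.16 quasi-likelihood model (R 4.3.3, TMM scaling) was fitted to the means of 6 groups of 3, with 12 residual degrees of freedom. The common biological coefficient of variation was 0.774. Comparisons, 11 in all, were contrasts of that model, with Benjamini-Hochberg adjustment over 17094 genes and calls at an adjusted p under 0.05. SE is the log2 fold change divided by the root of F, and 95% intervals use the t distribution with edgeR's degrees of freedom. Groups do not overlap where every library of 1 lies above every library of the other. Levels are TMM-scaled CPM, and CPM per kilobase uses the deposited exon length. Log2 values for correlations used a prior count of 2. Alternatives were DESeq2 1.42.0, limma 3.58.1 voom with sample weights, RLE scaling, no count filter, the compared groups alone, a replicate block, a background covariate and each library left out. Subtracting background was added after seeing the data. The edgeR script was tested on simulated data. Exon lengths and starts were checked against GENCODE M21 on GRCm38, the source of the sequences.

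The subunits and gene lists were chosen with earlier results of these data known. Named genes are all 10 subunits, up to 3 called genes per further list in the Ezh2 ECKO against MCAO ipsilateral comparison or, with none called, the 2 of smallest p, and the 5 genes most like Ezh1 and Ezh2 in pattern.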

Additional observations from a re-analysis of the deposited data

How the results depend on the processing

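No subunit was called by edgeR in any of the 11 comparisons with all libraries, with any 1 left out, or under the other settings except voom with sample weights. That setting called 1 subunit in MCAO ipsilateral against sham ipsilateral (Jarid2) and 2 over both sides (Jarid2 and Mtf2). Of the 17094 genes tested it called 1273 and 2199 in these comparisons, where edgeR called 0 and 26. Of 413 single gene values under the alternatives, 389 kept their direction and side of the threshold, 6 were newly called, 4 lost a call and 14 changed sign. Of 330 values with 1 library left out, 300 kept both, 12 lost a call and 18 changed sign.

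The values that changed sign included ones close to 0 and ones of scarce genes, and the cause was not tested. Rbbp4 under the Hdac2 ECKO label, at a mean of 62.3 CPM, changed from -0.36 with all libraries to 0.0064 without MCAO ipsilateral replicate 2. Under the Ezh2 ECKO label, Eed was 0.0604 with RLE scaling and with DESeq2, 0.032 with no count filter, 0.018 with the compared groups alone and 0.025 with background subtracted. Kdm6a was 0.075 with RLE scaling and with DESeq2, 0.011 with the compared groups alone and 0.024 with background subtracted, and Asxl3 was -0.14 with the background covariate. Under the Hdac2 ECKO label, Suz12 was -0.39 with the background covariate, Rbbp7 was -0.022 with voom, and Phf19 was -0.33 with the replicate block and -2.18 with voom. With 1 library left out, Phf1 ran from -0.43 to 0.10 after occlusion, from -0.825 to 0.19 under the Ezh2 ECKO label and from -0.39 to 0.43 under the Hdac2 ECKO label. Under the Ezh2 ECKO label Eed ran from -0.72 to 0.20 and Kdm6a from -0.33 to 0.25. Under the Hdac2 ECKO label Ezh2 ran from -1.25 to 0.87, Suz12 from -0.15 to 0.28, Rbbp4 from -0.76 to 0.0064, Rbbp7 from -0.12 to 0.29 and Phf19 from -2.29 to 0.95.

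Counts of all genes called moved more. For Ezh2 ECKO against MCAO ipsilateral edgeR called 250, against 9 with the background covariate, 12 with the replicate block, 377 with voom, 485 with the compared groups alone and 1617 with DESeq2. Over both sides it called 26, against 4 with the block, 40 with RLE scaling, 141 with the covariate and 334 with DESeq2. For MCAO ipsilateral against sham ipsilateral it called 0, against 71 with DESeq2 and 74 with the compared groups alone. Replicate numbers were not taken to pair the libraries. Deviations of same-numbered libraries correlated at -0.42 to 0.39, with 10 of 45 pairs above 0.1. Between the sides of 1 condition they correlated at -0.12 to 0.36, with 4 of 6 pairs above 0.1 and best with their own number, so a shared mouse for some pairs was not settled. With the replicate block 0 subunits were called. Ezh2 had 30 to 692 counts per library and Phf19 0 to 134.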

Other observations

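Gene groups around PRC2 were also read in the occlusion comparisons. Over both sides, the DNA methyltransferase gene Dnmt3a, whose product sets new methylation on DNA, stood at 18.7 to 36.7 CPM in the 6 sham libraries and at 3.35 to 14.8 CPM in the 6 wild-type MCAO libraries, with no overlap. Its log2 fold change was -1.63 ± 0.35 (edgeR p 0.000123, adjusted p 0.0665), which missed the threshold. This p took libraries of both sides as independent, and whether they shared mice was not settled. Libraries labelled Ezh2 ECKO read 21.8 to 29.0 CPM and those labelled Hdac2 ECKO 6.82 to 21.2 CPM. Of the 20 proliferation genes, 17 had values above 0 in MCAO ipsilateral against sham ipsilateral, where 45.9% of all genes did, with a median of 0.51 beside -0.09 for all genes. Here edgeR called 0 (2 of 20 at an unadjusted p under 0.05, against 7.08% of all genes). Between the contralateral groups 11 of the 20 had values above 0, where 59.3% of all genes did. Levels differed widely in this list, from scarce genes such as Cdk1 (mean 0.771 CPM) to Pcna (133 CPM). Of the 13 Trithorax genes, 12 had values below 0 over both sides, where 45.8% of all genes did, with a median of -0.22 beside 0.06 for all genes. Here edgeR called 0 (2 of 13 at an unadjusted p under 0.05, against 9.09% of all genes). The 6 H2A deubiquitinase genes also all had values below 0 over both sides, with a median of -0.29 and 0 called. In edgeR, 0 of the 6 had an unadjusted p under 0.05, against 9.09% of all genes. One of the 6, the scarce Asxl3 (mean 0.651 CPM), was at -0.012 ± 0.75. No rule for choosing among lists and comparisons was set beforehand for this section.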
